A study of Gallus gallus with 6 samples.

Results

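Fibroblast growth factor (FGF) signaling in the wounded chick lens was followed through 10 genes chosen by symbol: the receptors FGFR1, FGFR2 and FGFR3, the FGF family genes FGF2, FGF9, FGF10, FGF13 and FGF18, and the transcription factors ETV4 and ETV5. Of these, 9 have a row in the authors' table of 17262 genes, and FGF18 has no row under that symbol and was not analysed here. The libraries came from chick (Gallus gallus) lenses at embryonic day 14, each prepared from 6 pooled explants. A lens explant in this ex vivo model of cataract surgery is the capsule with its attached epithelium after the fiber mass has been taken out. The time 0 group (T0, 3 libraries) was collected directly after wounding. The 1 h group (3 libraries) was cultured for 1 h in medium with serum, so time after injury, culture and serum cannot be told apart. For the 1 h explants the paper also describes cuts into the equatorial epithelium, flattening onto a dish surface and antibiotics (Pen-Strep). The effects of these steps cannot be separated from that of time either. No genetic change distinguished the groups, and there was no unwounded or serum-free group among the 6 samples. The sample labels repeat the culture text for both groups, and the account in the study's methods was followed for time 0.

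FGFs are secreted proteins that bind receptor tyrosine kinases at the cell surface together with heparan sulfate chains. The activated receptor recruits adaptors, switches on RAS and the RAF, MEK and ERK kinase cascade, and the cascade raises transcription of ETS factors such as ETV4 and ETV5 and of its own inhibitors. In the vertebrate lens the pathway is best known from mammals, where FGF from the ocular fluids drives epithelial cells at the equator to become fiber cells and also supports their survival and proliferation. FGF13 belongs to a branch of the family, the FGF homologous factors, that stays inside the cell and binds sodium channels.

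The 6 libraries held between 13733581 and 17673955 counts, and a count of 3, used as the floor of detection, equalled between 0.175 and 0.221 counts per 1000000 counts of a library (CPM). CPM values are scaled by TMM, a method that sets libraries to a common level through the bulk of their genes. Of the 17262 genes, 12391 had enough counts for a test and 3938 differed between the time points at an adjusted p under 0.05 in the quasi-likelihood test of edgeR. Of those called, 62.2% were higher at 1 h, against 35.9% under upper-quartile scaling, which moved the median of all genes to -0.14 (log2), and 52.2% under scaling by library totals. The explants carried lens RNA throughout: summed lens epithelium markers (9 genes, led by PAX6 and CDH2) ranged from 1854 to 2033 CPM at time 0 and from 2412 to 2447 CPM at 1 h. Of these 9 genes, 3 (33.3%) were called higher, beside 19.8% of all genes tested, and 6 were not called. PAX6, called higher, averaged 597 CPM at time 0 and 919 CPM at 1 h, and CDH2, not called, 645 and 678 CPM. Summed lens fiber markers (22 genes, led by CRYAA and ASL1) ranged from 186382 to 203595 CPM at time 0 and from 152466 to 159485 CPM at 1 h. Of the 21 tested, 16 (76.2%) were called lower, beside 12.0% of all genes tested, and their median log2 fold change was -0.41. The sum is weighted to abundant crystallins (CRYAA averaged 79603 CPM at time 0 and ASL1 33347 CPM), so it hides larger falls of scarcer genes. BFSP1 and BFSP2, named after their values were seen, fell from 289 to 61.7 CPM and from 161 to 66.9 CPM. Their log2 fold changes were -2.23 and -1.27. CRYAA was among the 4 not called (log2 fold change -0.15, edgeR adjusted p = 0.219). PROX1, named after its values were seen, was called higher, with means of 281 CPM at time 0 and 485 CPM at 1 h. In RNA from whole explants, fewer cells of a type and less RNA per cell cannot be told apart.

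Marker lists of other tissues each summed to less than those of the lens, and single libraries stood apart in some of them. Immune markers (9 genes, led by PLEK and CSF1R) summed to between 4.72 and 8.21 CPM at time 0 and between 5.73 and 8.55 CPM at 1 h, and pigment epithelium markers (8 genes, led by SLC45A2 and RPE65) to between 6.34 and 8.58 CPM and between 4.37 and 6.54 CPM, with TYR, TYRP1 and DCT at or under 3 counts in every library. Neural retina markers (9 genes, led by ELAVL4 and SYT1) summed to between 18.0 and 22.5 CPM at time 0 and between 38.4 and 58.1 CPM at 1 h. Most of this was ELAVL4, with means of 16.3 and 37.9 CPM. It was called higher, and the other 2 tested markers of the list were not called. Replicate 3 at 1 h had 56 counts of STMN2, a marker that had at most 1 count in any other library. Mesenchyme markers (8 genes, most of it PDGFRA, with 298 to 356 CPM, followed by DCN) summed to between 333 and 382 CPM at time 0, where replicate 2 held 549 counts of DCN, and between 321 and 376 CPM at 1 h. Blood markers (5 genes, led by ALAS2 and HBA1) summed to between 29.3 and 54.5 CPM at 1 h, where replicate 1 held 309 counts of the globin gene HBA1, and to between 29.5 and 31.3 CPM at time 0. Endothelium markers (5 genes, led by KDR and EGFL7) summed to between 5.97 and 9.37 CPM at time 0 and between 19.4 and 27.3 CPM at 1 h. Most of this was KDR, with means of 7.27 and 21.1 CPM, the only marker of the list with enough counts for a test. EGFL7 averaged 0.424 and 0.465 CPM. The part of these markers in the FGF results was not tested beyond leaving out libraries.

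Among the FGF genes, FGFR2 rose and ETV4 fell at 1 h, while FGFR1, FGFR3, FGF2, FGF10, FGF13 and ETV5 did not pass the test and FGF9 was too sparse to be tested. Thus 1 of the 8 genes tested was called higher, where 19.8% of all genes tested were, and 1 of 8 was called lower, where 12.0% of all genes were. Their median log2 fold change was -0.004, beside -0.006 over all genes. Both shares (12.5% each) were near or below those of all genes, so the account that follows is of single genes.

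**Figure D1:**
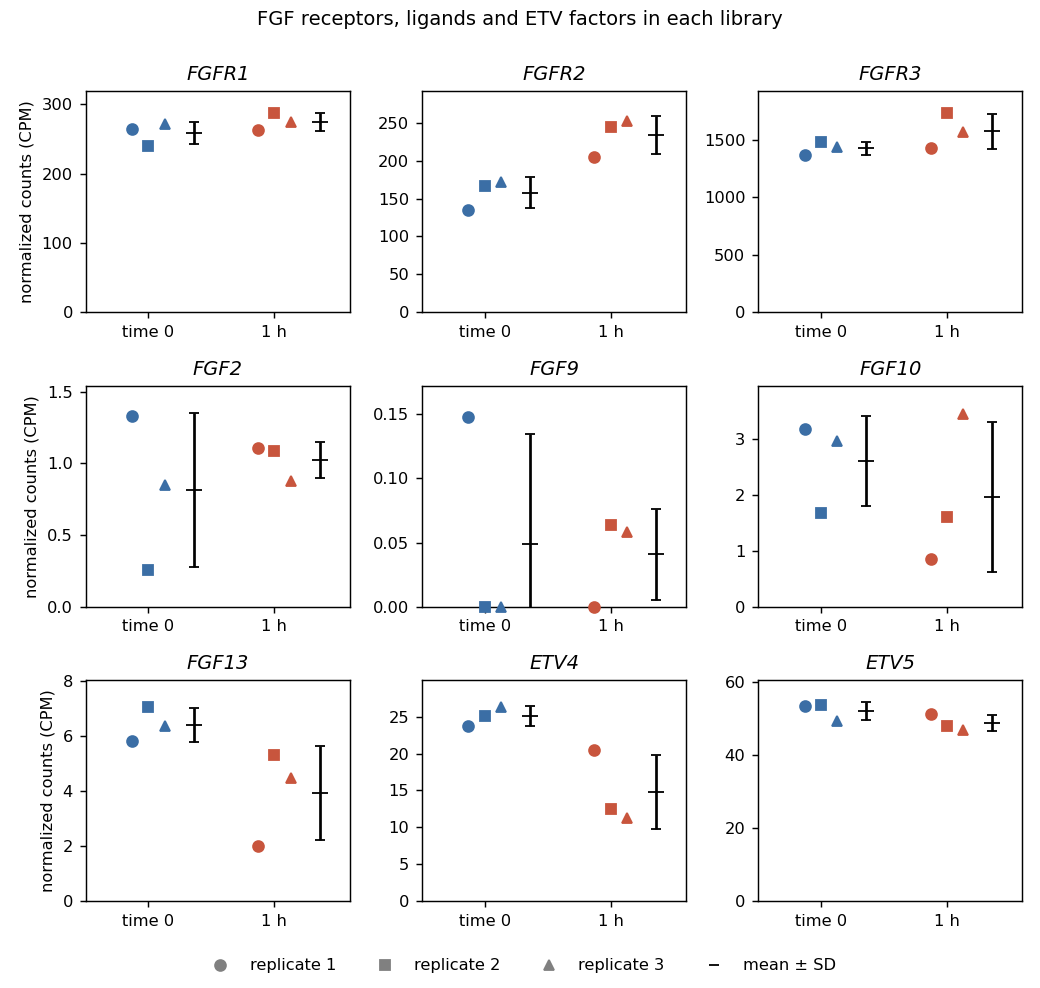
Level of each of the 9 FGF genes in every library, as TMM-normalized CPM on a linear axis that starts at 0 and has its own range in each panel. Points are single libraries, and bars are the mean ± SD of 3 libraries per time point (the FGF9 bar at time 0 is cut at 0). The 3 libraries at 1 h lie above all 3 at time 0 for FGFR2, between 204.9 and 252.2 CPM. They lie below those of time 0 for ETV4 and FGF13, and the groups overlap for the other genes. The share of all genes without overlap is not given here, and FGF13 did not pass the test.

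The receptors were the most abundant of the FGF genes. FGFR3 (ENSGALG00000015708, chromosome 4, 83408777 to 83460342, minus strand), a receptor that in mammals is also known for restraining growth of cartilage, had 1367, 1480 and 1439 CPM in replicates 1, 2 and 3 at time 0 and 1431, 1736 and 1570 CPM at 1 h. The lowest library at 1 h lay within the range of time 0, so the groups overlapped. The mean was 1429 ± 57.3 CPM (SD, n = 3) at time 0 and 1579 ± 153 CPM at 1 h, a log2 fold change of 0.14 (SE 0.08, 95% interval -0.04 to 0.33) with an adjusted p of 0.208 in edgeR.

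FGFR1 (ENSGALG00000039786, chromosome 22, 2646153 to 2661037, minus strand), a receptor that vertebrate embryos need to form mesoderm, had 263.9, 240.2 and 271.0 CPM at time 0 and 262.2, 287.8 and 274.5 CPM at 1 h. The time points overlapped, with 1 library of 1 h inside the time 0 range and the others just above it. The log2 fold change was 0.09 (SE 0.07, interval -0.07 to 0.25, edgeR adjusted p = 0.382), and under upper-quartile scaling it turned to -0.05, likewise not called.

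FGFR2 (ENSGALG00000009495, chromosome 6, 31834704 to 31906976, minus strand), whose splice forms bind different ligands in epithelium and mesenchyme, had 135.2, 166.1 and 172.6 CPM at time 0 and 204.9, 245.2 and 252.2 CPM at 1 h. Every library at 1 h was above every library at time 0, and the lowest of each group was its replicate 1. The mean rose from 157.9 ± 20.0 to 234.1 ± 25.5 CPM, a 1.48-fold increase with a log2 fold change of 0.57 (SE 0.11, interval 0.34 to 0.80, edgeR adjusted p = 0.0018). The gene stood at rank 1460 of the 12391 genes tested when ordered by p. Over all 15 alternatives of scaling, filter, test and left-out libraries the log2 fold change stayed between 0.43 and 0.64 and the call was kept, with adjusted p-values up to 0.0241. Counts per gene do not separate the splice forms of a receptor.

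To compare receptors with each other, levels were divided by the gene length in the authors' table and are given as CPM per kilobase (CPM/kb). The lengths (3532, 2857 and 5350 bases for FGFR1, FGFR2 and FGFR3) were taken as given. How fully they cover each transcript was not checked, and every comparison between genes in CPM/kb depends on them. FGFR3 had the highest level at both time points, with 255.6 to 276.7 CPM/kb at time 0 and 267.5 to 324.5 CPM/kb at 1 h. FGFR1 had 68.0 to 76.7 CPM/kb and 74.2 to 81.5 CPM/kb. FGFR2 had 47.3 to 60.4 CPM/kb and 71.7 to 88.3 CPM/kb. Thus FGFR2 lay below FGFR1 in all libraries of time 0, and the ranges of both receptors overlapped at 1 h.

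The ratio of FGFR2 to FGFR1 in CPM/kb was 0.758 ± 0.114 at time 0 (0.633 to 0.855) and 1.05 ± 0.0849 at 1 h (0.966 to 1.14). The ratio of FGFR3 to FGFR2 was 4.87 ± 0.484 and 3.61 ± 0.250. The ratio of FGFR3 to FGFR1 was 3.66 ± 0.352 and 3.79 ± 0.190. The first and the second of these ratios did not overlap between time points, with a two-sided exact permutation p of 0.1 each, which is the smallest that 3 against 3 libraries can give. The ratio of FGFR3 to FGFR1 overlapped (exact permutation p = 0.6). Adjusted over the 4 level ratios computed, these exact p-values were 0.133, 0.133 and 0.6, so none passed a threshold of 0.05, which the design cannot reach.

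Of the summed CPM/kb of FGFR1, FGFR2 and FGFR3, the share of FGFR3 was 67.7%, 68.7% and 66.2% at time 0 and 64.7%, 66.0% and 63.9% at 1 h. The share of FGFR2 was 12.5%, 14.4% and 14.9% and then 17.3%, 17.4% and 19.2%. The share of FGFR1 was 19.8%, 16.9% and 18.9% and then 18.0%, 16.6% and 16.9%. FGFR3 thus made up the bulk of the receptor transcripts in every library, and the FGFR2 share was higher in all libraries of 1 h than in any of time 0. Its mean went from 13.9% ± 1.25 to 18.0% ± 1.05 (SD, n = 3, exact permutation p = 0.1). The mean share of FGFR3 went from 67.5% ± 1.23 to 64.9% ± 1.06 (exact permutation p = 0.1, no overlap), and that of FGFR1 from 18.5% ± 1.49 to 17.1% ± 0.721 (exact permutation p = 0.3, overlap). Shares add up to the whole, so a rise in 1 of them lowers the others. Adjusted over the 3 shares, these exact p-values were 0.15 for FGFR2 and FGFR3 and 0.3 for FGFR1. The time points overlapped in the share of FGFR3 without division by length (76.4% to 78.5% against 74.9% to 76.5%) and with FGFR4 added to the sum (64.5% to 66.5% against 62.9% to 64.9%), with an exact permutation p of 0.2 each. The share of FGFR2 did not overlap in either. Without division by length the mean share of FGFR3 was 77.4% at time 0 and 75.6% at 1 h, and that of FGFR2 8.54% and 11.2%.

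**Figure D2:**
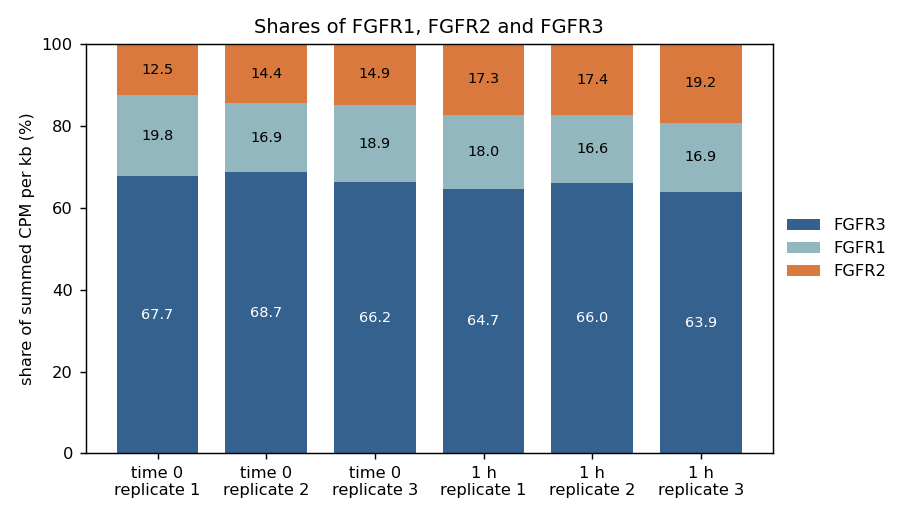
Share of FGFR1, FGFR2 and FGFR3 in their summed level (TMM-normalized CPM per kilobase of gene length), in percent, 1 stacked bar per library. FGFR3 takes between 63.9% and 68.7% of every bar, and the FGFR2 segment is between 12.5% and 14.9% at time 0 and between 17.3% and 19.2% at 1 h.

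The secreted ligands FGF2, FGF9 and FGF10 were scarce. FGF2 (ENSGALG00000011835, chromosome 4, 53577145 to 53603062, minus strand) is a ligand that binds FGF receptors and is stored on heparan sulfate in basement membranes. It had 18, 4 and 13 counts at time 0 and 17, 17 and 15 at 1 h. The low library was replicate 2 at time 0 and the remaining libraries overlapped. Time 0 libraries averaged 0.813 ± 0.535 CPM and 1 h libraries 1.02 ± 0.128 CPM, with a log2 fold change of 0.35 (SE 0.50, interval -0.74 to 1.44, edgeR adjusted p = 0.628), which turned to -0.09 without replicate 2 of time 0. The 3' ends of FGF2 and of NUDT6 (ENSGALG00000011834, plus strand, 53561954 to 53577563) overlap by 419 bases on opposite strands. Whether the counting used strand is not given in the sources used here, so the few FGF2 counts are uncertain. NUDT6 had 102, 131 and 96 counts at time 0 and 105, 105 and 120 at 1 h and was not called. No other FGF gene with a row overlapped a neighbour.

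FGF10 (ENSGALG00000014872, chromosome Z, 13972677 to 14032776, minus strand), a ligand made by mesenchyme in many organs that signals to the epithelial form of FGFR2, had 43, 26 and 45 counts at time 0 and 13, 25 and 59 at 1 h. The libraries of 1 h spanned the whole range of time 0, with replicate 1 lowest and replicate 3 highest. In CPM the level was 2.60 ± 0.804 and 1.96 ± 1.34, a log2 fold change of -0.38 (SE 0.45, interval -1.39 to 0.62, edgeR adjusted p = 0.553). Leaving out single libraries moved the value between -1.10 and -0.05, with no call. The high 1 h library is the one with STMN2 counts. With that library and replicate 2 of time 0 left out, a choice made after seeing the data, FGF10 was called lower (log2 fold change -1.32, edgeR adjusted p = 0.0434).

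FGF9 (ENSGALG00000025748, chromosome 1, 179686487 to 179717720, minus strand), a secreted ligand known from mesenchyme and retina, had 2, 0 and 0 counts at time 0 and 0, 1 and 1 at 1 h. All libraries were at or under the floor of 3 counts, which allows up to 0.221 CPM in the shallowest library, and no fold is given. The transcript was not detectable above this floor at either time point.

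FGF13 (ENSGALG00000006508, chromosome 4, 4750152 to 4964186, minus strand), the intracellular homologous factor, had 5.83, 7.05 and 6.36 CPM at time 0 and 2.02, 5.30 and 4.50 CPM at 1 h. All 3 libraries of 1 h were below all 3 of time 0, with replicate 1 of 1 h far below the rest. The level was 6.41 ± 0.614 CPM and 3.94 ± 1.71 CPM, a log2 fold change of -0.70 (SE 0.29, interval -1.33 to -0.07). It missed the threshold, with an edgeR p of 0.033 before adjustment and 0.0861 after it. The outcome turned on settings: it was called lower under upper-quartile scaling (adjusted p = 0.0367) and without replicate 2 of 1 h (-0.97, adjusted p = 0.0337), while without replicate 1 of 1 h the log2 fold change was -0.41.

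ETV4 and ETV5 belong to the PEA3 group of ETS transcription factors, which are transcriptional targets of FGF and ERK signaling and are used as its readout in many embryonic tissues. ETV4 (ENSGALG00000036678, chromosome 27, 5959008 to 5971321, plus strand) had 23.7, 25.1 and 26.3 CPM at time 0 and 20.5, 12.5 and 11.3 CPM at 1 h. All libraries of 1 h were below those of time 0, and replicate 1 of 1 h lay closer to time 0 than to the other libraries of its group. The mean fell from 25.1 ± 1.3 to 14.8 ± 4.98 CPM, a log2 fold change of -0.77 (SE 0.20, interval -1.21 to -0.33, edgeR adjusted p = 0.015), or 1.70-fold. The call was lost without replicate 3 of time 0 (-0.73, edgeR adjusted p = 0.0504). It was also lost with replicate 2 of time 0 and replicate 3 of 1 h left out together (-0.61, adjusted p = 0.0852). Without replicate 1 of 1 h the fold change was -1.09.

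ETV5 (ENSGALG00000005768, chromosome 9, 5289877 to 5299258, minus strand) had 53.5, 53.7 and 49.3 CPM at time 0 and 51.3, 48.1 and 46.9 CPM at 1 h. The groups overlapped, with the lowest libraries at 1 h. The mean was 52.2 ± 2.44 and 48.8 ± 2.28 CPM, and the log2 fold change of -0.10 (SE 0.08, interval -0.27 to 0.07) did not pass the test (edgeR adjusted p = 0.364). Under upper-quartile scaling it was called lower at -0.23 (adjusted p = 0.0296), where the median of all genes was -0.14. Per length, ETV5 stood above ETV4 in every library, with a ratio of 1.36 ± 0.126 at time 0 (1.22 to 1.46) and 2.27 ± 0.566 at 1 h (1.63 to 2.69). The ratio did not overlap between time points (exact permutation p = 0.1, and 0.133 adjusted over the 4 ratios).

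Ordered by mean CPM/kb over the 6 libraries, FGFR3 (281.1) was followed by FGFR1 (75.5), FGFR2 (68.6), ETV5 (20.6), ETV4 (12.5), FGF13 (1.52), FGF2 (1.08), FGF10 (0.520) and FGF9 (0.0207). Neighbours in this order whose libraries overlapped were FGFR1 and FGFR2 at 1 h, FGF13 and FGF2 at 1 h, and FGF2 and FGF10 at time 0. Ranked by mean CPM/kb among the 12391 genes tested, which leaves out the sparse genes, FGFR3 stood at the 98.3 percentile and FGFR1 and FGFR2 at 93.7 and 92.9. ETV5 and ETV4 stood at 74.2 and 60.6, whereas FGF13, FGF2 and FGF10 stood at 15.3, 11.8 and 5.49.

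**Figure D3:**
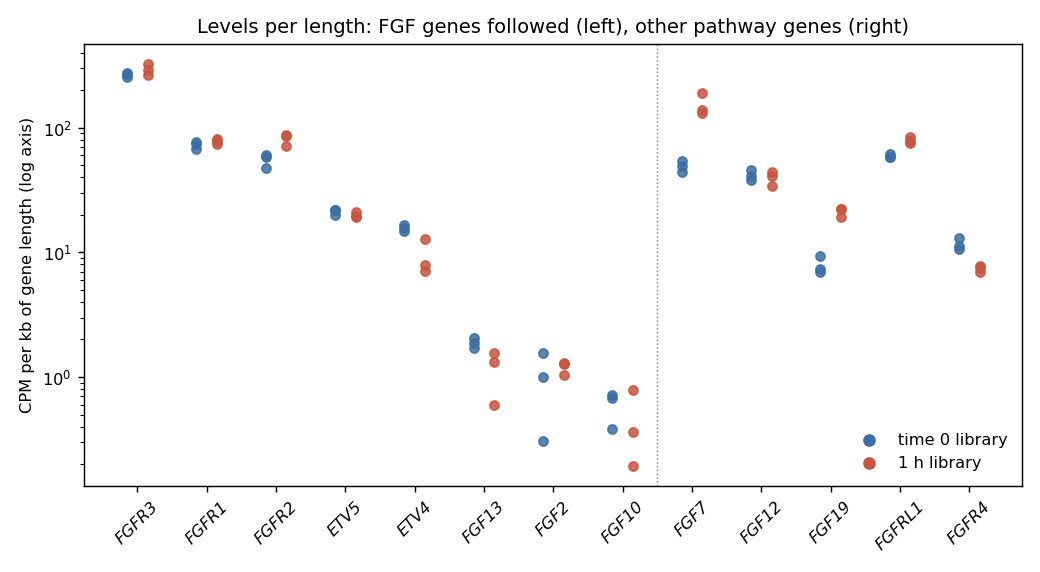
Level of the FGF genes in every library as TMM-normalized CPM per kilobase of gene length, on a log axis, in order of the mean, with 5 other pathway genes to the right of the dotted line. Points are libraries, blue at time 0 and red at 1 h. FGF9 is not drawn because it is at 0 counts in 3 libraries. FGFR1, FGFR2 and FGFR3 lie between 47.3 and 324.5, ETV5 and ETV4 between 7.11 and 21.9, and FGF13, FGF2 and FGF10 at 2.07 or lower.

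The wider pathway was read from lists of its other genes. A symbol held by more than 1 row was left out and counts here as having no row. Of 120 genes listed, 88 had a row and 74 were tested, of which 31 (41.9%) were called higher and 3 (4.05%) lower, beside 19.8% and 12.0% of all genes. The median log2 fold change was 0.12, beside -0.006 for all genes. With replicate 2 of time 0 and replicate 3 of 1 h left out together, 24 of 75 were higher and 1 lower. In that setting 15.3% of all genes were higher and 5.72% lower. Under upper-quartile scaling 26 of 74 were higher and 13 lower, where 15.3% and 27.4% of all genes were. The lists were chosen with results of these libraries known, and lens markers moved in the same comparison as given above, whose part in these counts was not tested.

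**Figure D4:**
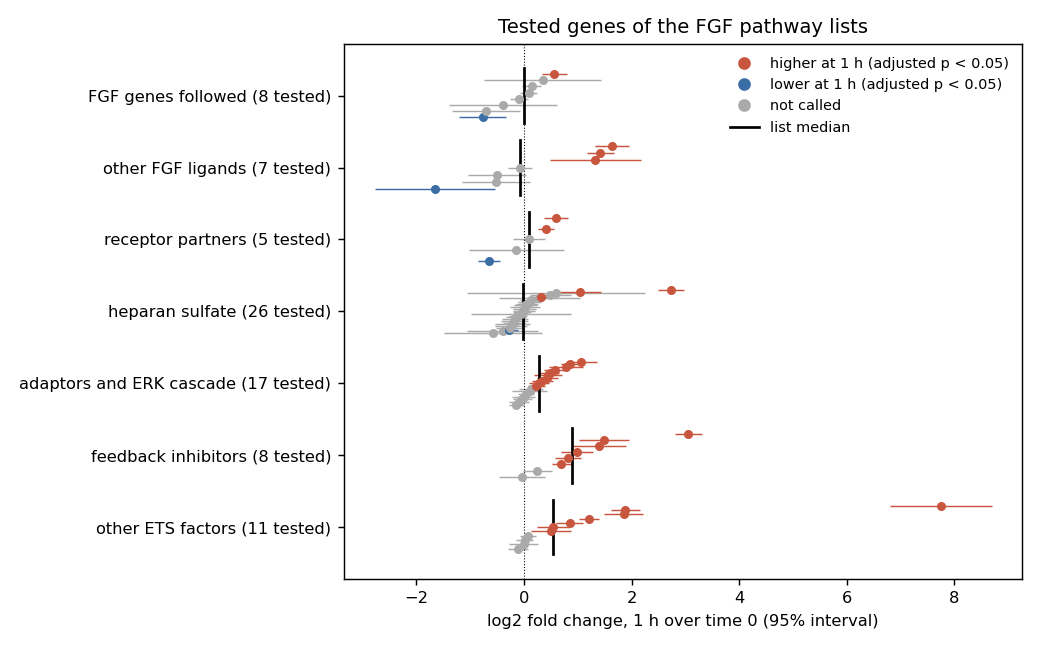
Log2 fold change at 1 h against time 0 of every tested gene, grouped as the FGF genes and 6 lists of other pathway genes, 1 point per gene with its 95% interval. Red points were called higher and blue points lower in edgeR, grey points were not called, black bars mark each list's median and the dotted line is at 0. The point farthest right is ELF3, whose fitted value depends on the prior count because time 0 is near 0. No tested gene of the adaptor and ERK, feedback or other ETS lists was called lower under TMM scaling. These lists are short (17, 8 and 11 genes tested), and 12.0% of all genes were called lower. FGFR2 and ETV4 are the called FGF genes.

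Of the other FGF ligands, 17 listed, 10 had a row and 7 were tested. Of these, 3 (42.9%) were higher and 1 (14.3%) lower, beside 19.8% and 12.0% of all genes. FGF7, keratinocyte growth factor, a ligand of the epithelial form of FGFR2, had 406, 569 and 515 counts at time 0 and 1377, 1479 and 2201 at 1 h. The groups did not overlap, and the mean rose from 33.5 ± 3.44 to 104 ± 21.2 CPM (log2 fold change 1.64, SE 0.14, edgeR adjusted p = 1.74e-05). Per length, FGF7 averaged 49.2 CPM/kb at time 0 and 153 CPM/kb at 1 h, above every library of FGF2, FGF9 and FGF10. FGF19, an endocrine ligand that acts early in chick inner ear development, rose from 17.9 ± 2.81 to 48.1 ± 3.73 CPM (log2 fold change 1.42, SE 0.12, adjusted p = 1.95e-06). FGF16, named after its values were seen, rose from 1.16 to 2.94 CPM (log2 fold change 1.33, edgeR adjusted p = 0.021), a call that was lost without replicate 1 or 3 of time 0 or replicate 1 of 1 h. FGF1, a ligand of all FGF receptors with a long history in lens culture, had 19, 91 and 48 counts at time 0 and 25, 12 and 16 at 1 h. It was called lower (log2 fold change -1.66, SE 0.50, edgeR adjusted p = 0.0298) although the groups overlapped. Without replicate 2 of time 0, its highest library, the value was -1.05 (adjusted p = 0.121), and the call was also lost without replicate 3 of time 0, replicate 2 of 1 h or replicate 3 of 1 h. FGF12, another intracellular homologous factor, had the highest mean CPM of the list. It averaged 82.8 CPM at time 0 and 78.6 CPM at 1 h (log2 fold change -0.08, edgeR adjusted p = 0.612).

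Of the receptor partners and related receptors, 10 listed, 6 had a row and 5 were tested. Of these, 2 (40%) were higher and 1 (20%) lower, beside 19.8% and 12.0% of all genes. FGFRL1, a receptor that binds FGFs but lacks the kinase domain, rose from 202 ± 6.05 to 269 ± 14.3 CPM (log2 fold change 0.42, SE 0.07, edgeR adjusted p = 0.000765). FLRT3, a membrane protein that associates with FGF receptors in frog embryos, rose from 54.2 ± 2.28 to 82.1 ± 12.0 CPM (log2 fold change 0.60, SE 0.10, adjusted p = 0.000903). FGFR4, the remaining FGF receptor kinase, had 534, 741 and 631 counts at time 0 and 392, 452 and 474 at 1 h. It fell from 42.9 ± 4.47 to 27.4 ± 1.66 CPM (log2 fold change -0.65, SE 0.10, edgeR adjusted p = 0.000333), opposite in direction to FGFR2. With FGFR4 added to the receptor sum, its share was 2.85% at time 0 and 1.61% at 1 h.

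Of the heparan sulfate genes (core proteins and the enzymes that build and trim the chains), 26 were tested, with 3 higher (11.5%) and 1 lower (3.85%), both below the 19.8% and 12.0% of all genes. SDC4, a syndecan that carries heparan sulfate at focal adhesions, rose from 21.6 ± 0.496 to 143 ± 22.1 CPM (log2 fold change 2.73, SE 0.11, edgeR adjusted p = 6.3e-09). SDC1, the main epithelial syndecan, rose from 4.62 to 9.56 CPM (log2 fold change 1.04, adjusted p = 0.000928). The third, EXT1 (named after its values were seen), a polymerase of the chains, had a log2 fold change of 0.33 (edgeR adjusted p = 0.0148) that lost its call under upper-quartile scaling (0.19, adjusted p = 0.0976) and when replicate 2 or 3 of either time point was left out. GPC4, a glypican, was lower (254 ± 12.4 and 210 ± 18.2 CPM, log2 fold change -0.27, edgeR adjusted p = 0.0208), and its call was lost without replicate 2 or 3 of time 0 or replicate 3 of 1 h. The most abundant members, HSPG2 (perlecan, of basement membranes) and SDC2, had log2 fold changes of 0.01 and 0.06 and were not called. The sign of both turned to negative under upper-quartile scaling, and that of HSPG2 also under library totals, in DESeq2 and without the filter on low counts.

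In the adaptor and ERK cascade list, 10 of 17 genes tested (58.8%) were higher and 0 lower in edgeR, beside 19.8% and 12.0% of all genes. At an unadjusted edgeR p under 0.05, 0 were lower as well, where 2301 of all 12391 genes tested were. In DESeq2 0 were lower too, beside 9.63% of all genes. Under upper-quartile scaling, where 15.3% of all genes were higher and 27.4% lower, 7 were higher and 2 lower. Under library totals, where 17.8% of all genes were higher and 16.3% lower, the counts were 9 and 1. BRAF, a kinase that RAS activates, rose from 11.3 to 23.7 CPM (log2 fold change 1.07, SE 0.13, edgeR adjusted p = 6.74e-05). GRB2, the adaptor that links receptors to RAS and among the most abundant genes of the list, averaged 99.4 CPM at time 0 and 90.1 CPM at 1 h. It was not called (log2 fold change -0.14, edgeR adjusted p = 0.122), although it was called lower under upper-quartile scaling (-0.28) and library totals (-0.19). With replicate 2 of time 0 and replicate 3 of 1 h left out, 6 of 17 were higher, where 15.3% of all genes were.

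Of the feedback inhibitors, 14 listed, 9 had a row and 8 were tested. Of these, 6 (75%) were higher in edgeR and 0 lower, beside 19.8% and 12.0% of all genes. Likewise 0 were lower at an unadjusted edgeR p under 0.05, where 2301 of all 12391 genes tested were, and 0 in DESeq2, beside 9.63% of all genes. The median log2 fold change of the list was 0.90. As many were higher under upper-quartile scaling and with the 2 libraries left out, where 15.3% of all genes were higher in each setting. DUSP7, a phosphatase of ERK, rose from 8.11 ± 0.723 to 67.2 ± 7.75 CPM (log2 fold change 3.05, SE 0.12, edgeR adjusted p = 2.61e-09), and CBL, a ubiquitin ligase that removes active receptors, from 36.1 to 58.5 CPM (log2 fold change 0.70, adjusted p = 4.71e-05). The other 4, named after their values were seen, were SPRY1, SPRY2, SPRED1 and SPRED2, inhibitors that act between receptor and RAF. SPRY1 had 19.5 ± 1.63 and 54.5 ± 14.6 CPM and SPRY2 23.0 ± 4.10 and 60.8 ± 14.8 CPM (log2 fold changes 1.49 and 1.40, edgeR adjusted p = 0.000874 and 0.00178). Those not called were NF1, a RAS inactivator (log2 fold change 0.25, adjusted p = 0.15, but called without replicate 2 of time 0 at 0.37, adjusted p = 0.0306), and IL17RD, an FGF receptor inhibitor (log2 fold change -0.04, adjusted p = 0.908). SPRY1 and SPRY2 are, like ETV4 and ETV5, known targets of FGF signaling, and in these libraries SPRY1 and SPRY2 were higher at 1 h, ETV4 was lower and ETV5 did not pass the test.

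Of the other ETS factors, 21 listed, 17 had a row and 11 were tested. Of these, 7 (63.6%) were higher in edgeR and 0 lower, beside 19.8% and 12.0% of all genes. Likewise 0 were lower at an unadjusted edgeR p under 0.05, where 2301 of all 12391 genes tested were, and 0 in DESeq2, beside 9.63% of all genes. Under upper-quartile scaling 6 were higher and 1 lower, where 15.3% and 27.4% of all genes were. ELF3, an ETS factor of epithelia, had 1, 1 and 0 counts at time 0 and 187, 134 and 231 at 1 h, at least 56.0-fold higher when time 0 is set at 3 counts per library (edgeR adjusted p = 6.62e-08). ETV6, an ETS repressor, rose from 11.2 to 41.6 CPM (log2 fold change 1.89, SE 0.12, edgeR adjusted p = 2.18e-07). The most abundant, GABPA and ELF2, had log2 fold changes of 0.07 and 0.01 and were not called (adjusted p = 0.457 and 0.901), and both signs turned to negative under upper-quartile scaling, that of ELF2 also under library totals, in DESeq2 and without the filter.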

How the data were processed

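The authors deposited 1 table of 17262 genes with raw read counts per gene and library and FPKM values, gene lengths, coordinates and symbols (5219 genes have none), beside size-factor-normalized values, log2 fold changes and p-values of their own comparison, which were not used here. The submitters' processing notes name HISAT2 2.0.5, StringTie 1.3.3b, featureCounts 1.5.0-p3 and DESeq2 1.20.0. The genome build and the strand setting are not given in the sources used here, so coordinates stand as in the deposited table. FPKM entered only a computation of receptor shares. They rest on the same counts and gene lengths, so the same shares were bound to result and nothing was tested by them.

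Counts were analysed with R 4.3.3 and edgeR 4.0.16 (filterByExpr, TMM, robust glmQLFit, glmQLFTest), with Benjamini-Hochberg adjustment over 12391 genes and a threshold of 0.05. SE came from the F statistic. Single ratios and shares were compared by two-sided exact permutation over 6 libraries. DESeq2 1.42.0, other scalings and filters, a replicate block and leaving out each library were alternatives. Intervals and the 3-count floor do not cover more than the spread between these libraries and counting error, respectively. The labels call the samples biological replicates without naming separate cultures, and p-values measure the spread between these libraries only. Replicates differed by more than sampling noise (chi-square per degree of freedom 7.74 to 14.1).

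The FGF genes and all lists were chosen with earlier results of these data known. Beside the FGF genes, the text names from each pathway list the 2 called genes of smallest p in each direction and the 2 most abundant, the 2 most abundant markers of each list, and genes overlapping an FGF gene, with others said to be chosen after their values were seen, apart from markers that set single libraries apart. FGF14 is listed as FHF-4. On simulated counts of 12274 genes, edgeR called 47 of 49 genes lowered by 2 on the log2 scale, 42 of 48 lowered by 1, 45 of 50 raised by 1 and 50 of 50 raised by 2, with 16 false calls. The simulation changed few genes, about as many raised as lowered. It therefore cannot test the scaling for these libraries, where 3938 of 12391 tested genes were called. Values of a few genes that the naming rule selects are left out.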

Additional observations from a re-analysis of the deposited data

How the results depend on the processing

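Of the FGF genes, FGFR2 kept its direction and call under all 15 alternatives, and FGFR3 was called in none (log2 fold change 0.0096 to 0.19). Under upper-quartile scaling 4 FGF genes were called, 3 of them lower (ETV4, FGF13 at -0.83 and ETV5 at -0.23). FGFR1 turned to -0.045 there, and 3400 genes in all (27.4% of those tested) were lower. HSPG2, ELF2, SDC2 and GABPA turned to -0.12, -0.12, -0.077 and -0.061 there. HSPG2 and ELF2 turned to -0.032 and -0.030 under library totals, and HSPG2 and ELF2 to -0.0019 and -0.0010 in DESeq2 and to -0.0053 and -0.0051 without the filter. With a log2 fold change of at least 1 required, 0 FGF genes and 896 genes in all were called (800 higher, 96 lower). The cause was not tested.

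Leaving out 1 library at a time, between 1 and 3 FGF genes were called, 0 to 2 of them lower. Over these settings between 15.6% and 18.3% of all genes were called higher and between 8.18% and 11.4% lower. Log2 fold changes ranged from -1.09 to -0.62 for ETV4, -0.97 to -0.41 for FGF13, -0.086 to 0.87 for FGF2, -0.099 to 0.18 for HSPG2, -0.044 to 0.040 for ELF2, -0.054 to 0.12 for SDC2 and -0.17 to 0.0093 for FGF12. With replicate 2 of time 0 and replicate 3 of 1 h left out together, 2614 genes were called (711 lower), ETV4 lost its call (-0.61), FGF10 gained one (-1.32) and ELF2 turned to -0.073.

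Without division by length, the shares of FGFR1, FGFR2 and FGFR3 were 14.02%, 8.54% and 77.4% at time 0 and 13.2%, 11.2% and 75.6% at 1 h, and with FGFR4 in the sum that of FGFR3 at time 0 was 65.6%. With the replicate number as a block, 2 FGF genes were lower, where 10.9% of all genes were. FGF13 at -0.76 was added (edgeR adjusted p = 0.043), and NF1 was called higher (0.25, edgeR adjusted p = 0.0302). Deviations of same-numbered libraries did not correlate (-0.077, 0.015 and -0.042), so the numbers were not read as pairs. Depth limits FGF2, FGF9 and FGF10, with at most 59 counts in a library.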

Other observations

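FGF3 and AGRN were too sparse to be tested and are given as counts, while FGF22 was tested. All of these were chosen after their values were seen. FGF3 had 2, 2 and 0 counts at time 0 and 6, 5 and 8 at 1 h, at least 1.93-fold higher when time 0 is set at 3 counts per library, and was not tested. AGRN, the basement membrane proteoglycan agrin, had 8, 18 and 0 counts at time 0 and 0, 0 and 62 at 1 h, where the 62 counts are in replicate 3, the library with STMN2 counts. FGF22, a ligand known from brain synapses, averaged 3.43 ± 0.536 CPM at time 0 and 2.42 ± 0.344 CPM at 1 h without overlap (log2 fold change -0.50, SE 0.24, edgeR adjusted p = 0.139).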
